A study of Mus musculus with 3 samples.

Results

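Macrophages of the metastatic lung (mTAMs) were compared with macrophages of the primary tumor (pTAMs), with 1 expression array of each. The comparison covered every gene that had a probe set of its own and lay above 5.3 on the log2 scale on at least 1 of the 2 arrays, which held for 11801 of 18193 genes. Each gene was read from the probe set with the highest mean over all 3 arrays of the series. Both populations came from BALB/c mice bearing orthotopic 4T1 tumors, a syngeneic mammary carcinoma line that colonizes the lung, and the mTAMs were taken from the lung matched to the tumor. Such cells were taken 5 weeks after inoculation in other experiments, and the time for the arrays is not stated. The third array held bone marrow-derived macrophages (BMDM) that had been cultured from healthy mice. All 3 populations were sorted as CD11b+ F4/80+ cells, and the TAMs had first passed through enzymatic digestion and a Percoll gradient. Whether the arrays used cells sorted against Ly6C as well, as other experiments of the study did, and whether mice were pooled, is not stated. The study used the arrays to look for factors of mTAMs that act upstream of JAK-STAT signaling.

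Tumor-associated macrophages arise mainly from blood monocytes and adapt to the tissue they enter. The lung also has macrophages of its own: alveolar macrophages live in the air space, clear surfactant lipid and carry Siglec-F, whereas a growing mammary tumor often contains poorly oxygenated regions in which cells switch on genes of the hypoxia-inducible factors. Both sites of the 4T1 model are also known for the many neutrophils that this tumor mobilizes.

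There were no replicates, so differences are differences between 2 arrays, with no test and no error across mice. As the only technical spread at hand, the log2 differences of several probe sets for the same gene had an SD of 0.28 over 5222 genes, which leaves out the mouse, the sort and the array. Genes that differed by at least 2-fold are called higher or lower. Of the 84 probe sets for receptors of smell and taste, 91.7% of the values lay at or below the floor of 5.3. Where a value lay at or below this floor, the fold is taken from the floor instead and is written as at least that size. In what follows, 3 values after a gene name are its log2 RMA values on the BMDM, pTAMs and mTAMs arrays, in this order.

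In all, 633 genes (5.36% of those compared) were at least 2-fold higher in mTAMs and 304 (2.58%) at least 2-fold lower, against a median log2 difference of -0.06 over all compared genes. The larger differences lay mostly on the mTAMs side. At least 4-fold apart were 179 genes that were higher in mTAMs and 22 that were lower, and at least 8-fold apart were 46 and 2. Of the higher genes, 102 had a pTAMs value at or below the floor, and 31 of the lower genes had such a value in mTAMs. The calls closest to the threshold lay at log2 differences of 1 and -1, and the nearest genes left out at 0.99 and -0.99. A further probe set above the floor existed for 268 of the higher genes and was also past 2-fold in 199 of them (74.3%). For the lower genes this held for 82 of 146 (56.2%), and no gene in either direction had a probe set past 2-fold the other way.

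**Figure D1:**
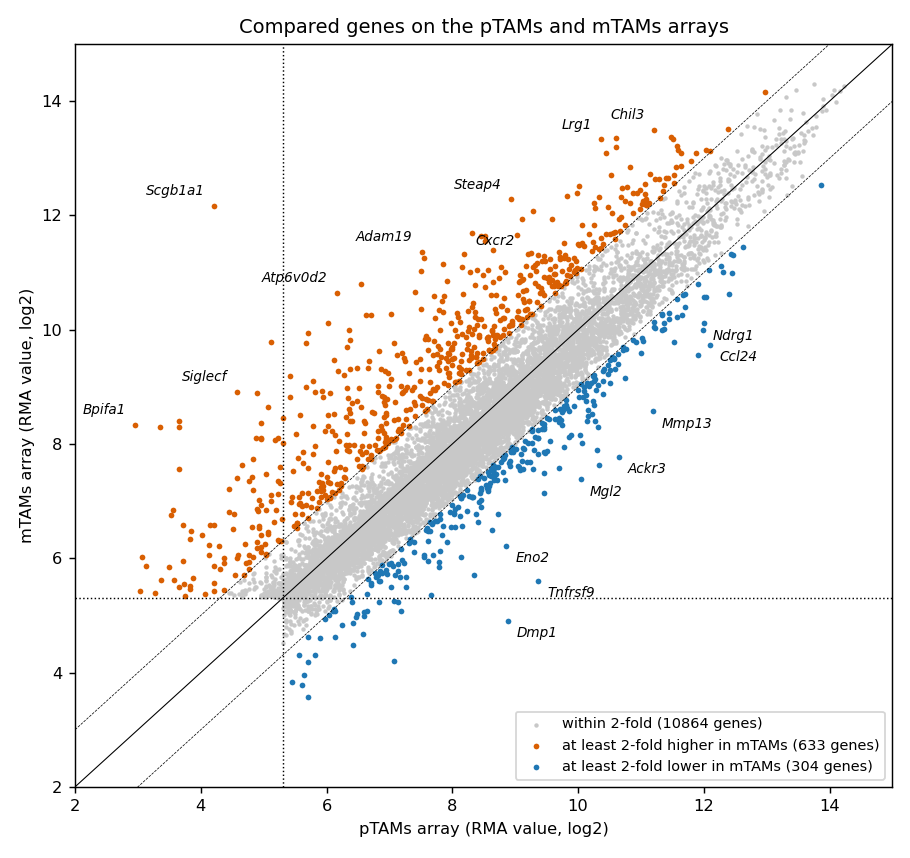
Log2 RMA values on the pTAMs array (horizontal axis) and the mTAMs array (vertical axis), 1 point per compared gene. Solid, dashed and dotted lines mark equality, the 2-fold threshold and the floor of 5.3. The 633 genes higher in mTAMs reach farther from the diagonal than the 304 lower genes, and *Scgb1a1* lies farthest from it.

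The gene with the largest difference was *Scgb1a1*, which encodes the secretoglobin of airway club cells (4.12, 4.21 and 12.17). Only the mTAMs array had a value above the floor, at least 117-fold higher than in pTAMs. Next came *Ear3*, an eosinophil-associated ribonuclease gene (4.10, 5.12 and 9.79, at least 22.5-fold), which was read from a probe set that the array marks as shared between related genes. *Atp6v0d2*, a subunit of the vacuolar proton pump found in osteoclasts and alveolar macrophages, was 22.3-fold higher (7.88, 6.16 and 10.64), with a second probe set at a log2 difference of 4.38. *Gpnmb*, a glycoprotein of lipid-laden macrophages, was 19.2-fold higher (13.16, 6.54 and 10.80), or 2.68 on the log2 scale with all its probe sets averaged, and *Ctsk*, the collagen-degrading cathepsin of osteoclasts, was 19.0-fold higher (7.53, 5.70 and 9.95). For these last 3 genes pTAMs had the lowest value of the 3 arrays. By contrast, *Nlrp12*, a restraining receptor of myeloid cells (3.69, 6.02 and 10.11, 17.0-fold), *Bmx*, a TEC-family tyrosine kinase (4.61, 5.68 and 9.77, 17.0-fold), and *Adam19*, a membrane metalloprotease (6.14, 7.51 and 11.36, 14.4-fold), were lowest in BMDM.

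On the other side, *Tnfrsf9*, the receptor 4-1BB, was 13.6-fold lower in mTAMs (4.97, 9.37 and 5.60), with a second probe set at -4.77. *Dmp1*, a matrix protein of mineralizing tissue, was at least 12-fold lower (3.01, 8.88 and 4.91). Both genes stood out in pTAMs alone, with BMDM and mTAMs near or below the floor. *Ackr3*, the scavenging receptor of CXCL12, was 7.31-fold lower (3.59, 10.65 and 7.78) and *Sdc1*, the proteoglycan syndecan-1, was 6.45-fold lower (7.16, 10.33 and 7.64). *Mgl2*, a galactose-binding lectin of alternatively activated macrophages, was 6.32-fold lower (3.92, 10.04 and 7.38). *Mmp13*, a collagenase, was 6.15-fold lower (8.53, 11.19 and 8.57), so that mTAMs matched BMDM, and *Mmp12*, the macrophage elastase, was 5.13-fold lower (10.69, 11.91 and 9.55). The probe sets of *Dmp1*, *Ackr3* and *Sdc1* are marked as shared, and without shared probe sets *Dmp1* differed by -2.0.

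**Figure D2:**
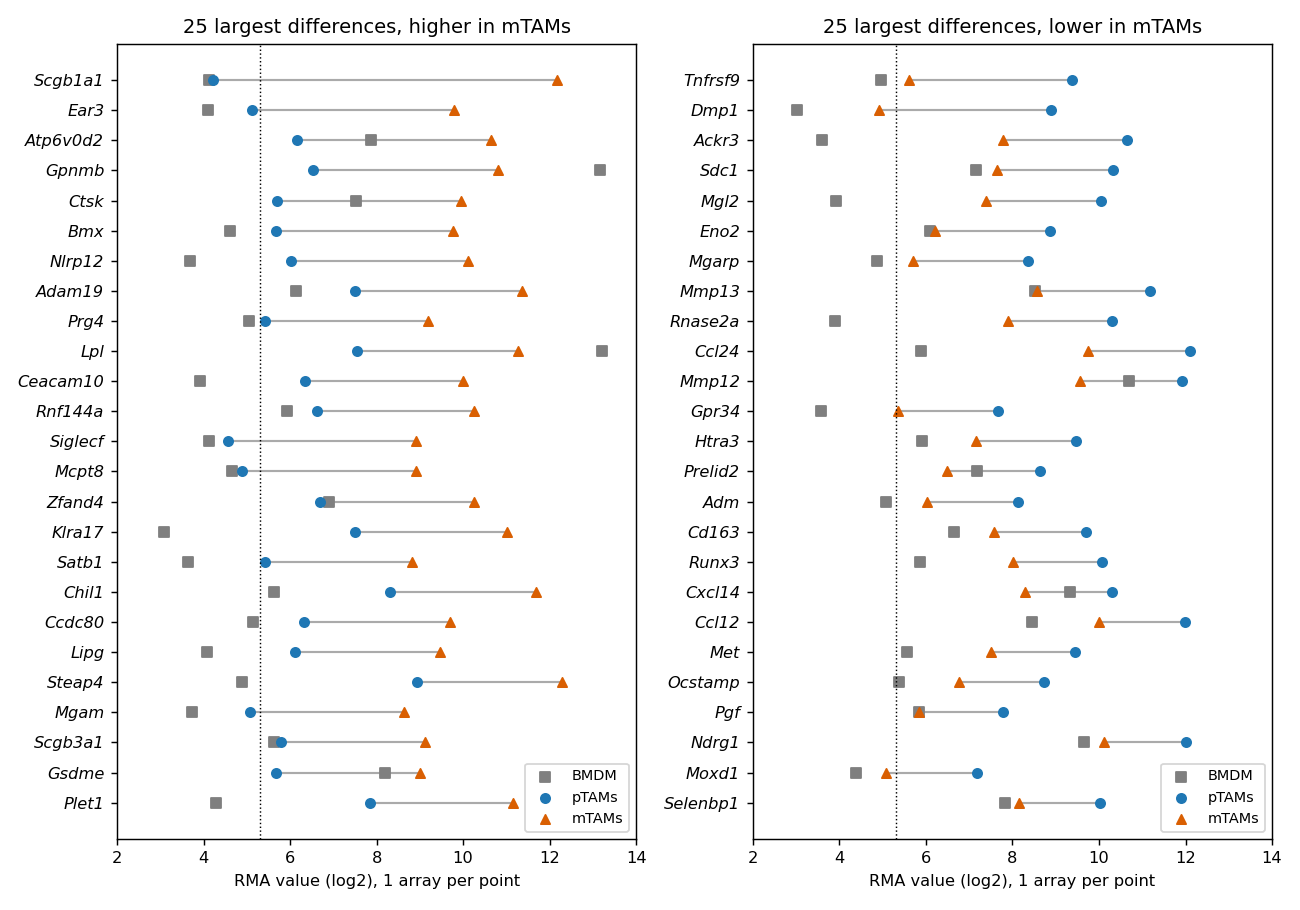
The 25 genes with the largest difference in each direction after raising values below the floor to it (vertical axis), with their log2 RMA values (horizontal axis) on the BMDM, pTAMs and mTAMs arrays, 1 array per point. The dotted line is the floor of 5.3. In the panel of lower genes, *Mmp13*, *Eno2* and *Pgf* are at nearly the same value in mTAMs and BMDM.

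The label of both populations was checked against macrophage markers. *Adgre1*, which encodes F4/80 (11.93, 10 and 10.06), *Itgam*, which encodes CD11b (10.46, 11.90 and 11.61), *Csf1r*, the receptor for the macrophage growth factor (13.35, 13.27 and 12.89), and *Cd68* (13.07, 12.10 and 12.10) differed little between the TAMs. No marker of the 12 compared was higher in mTAMs by 2-fold, and 2 were lower (over all compared genes 5.36% were higher and 2.58% lower), namely *Fcgr1*, a high-affinity receptor for IgG (10.91, 12.03 and 10.58, 2.73-fold), and *Aif1* (8.84, 11.70 and 10.62, 2.11-fold). Of 12 monocyte markers, 3 were lower and 3 higher. *Cx3cr1* (8.66, 10.50 and 9.29), *F13a1* (7.37, 12.30 and 11.01) and *Vcan* (6.44, 9.86 and 8.57) were 2.31-fold to 2.45-fold lower in mTAMs, *Ccr2* was 12.27 in pTAMs and 11.34 in mTAMs, and *Plac8* was 12.76 in both. The higher members were *Cd177* (3.89, 8.52 and 11.64), *Chil3* (5.02, 11.20 and 13.50) and *Nr4a1* (7.09, 11.31 and 12.31).

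Most markers of alveolar macrophages were higher in mTAMs. Of 23 compared, 18 were at least 2-fold higher in mTAMs and none was lower, with a median log2 difference of 2.20, or 1.41 with values raised to the floor. As 7 of the 18 were at or below the floor in pTAMs and entered only through their mTAMs value, these had to be higher, and with both values above the floor 11 were higher. *Siglecf*, the sialic acid-binding lectin that identifies these cells, was present in mTAMs alone (4.13, 4.57 and 8.91, at least 12.2-fold). *Pparg*, the lipid-sensing receptor required for their development, was 4.59-fold higher (8.01, 5.55 and 7.75) and *Car4*, a membrane carbonic anhydrase, was 6.45-fold higher (3.43, 7.07 and 9.76). *Marco*, a scavenger receptor (5.3, 5.25 and 6.31), *Fabp1*, a fatty acid-binding protein (4.00, 3.83 and 6.34), *Krt79* (4.27, 4.15 and 6.58), and *Cidec*, a lipid droplet protein (3.34, 3.12 and 5.87), were above the floor in mTAMs alone. *Chil3*, whose product Ym1 is secreted by alveolar macrophages and by neutrophils, was 4.92-fold higher (5.02, 11.20 and 13.50). *Plet1* was 9.85-fold higher (4.29, 7.85 and 11.15), but its other probe sets differed by between 0.24 and 3.43. Not all members took part: *Itgax*, the integrin CD11c (6.62, 9.56 and 9.22), *Mrc1*, the mannose receptor (11.38, 11.96 and 11.45), and *Bhlhe41* (5.99, 5.83 and 5.97) were within 2-fold. The median level of the list was 5.36 in BMDM, 6.15 in pTAMs and 7.87 in mTAMs. On pooled cells such as these, fewer cells of a type and less RNA per cell cannot be told apart.

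Markers listed for resident tissue macrophages leaned the other way. Of 17 compared, 4 were lower in mTAMs and 1 was higher, with a median difference of -0.43. After cyclic loess normalization 3 were lower, and the median was -0.25. *Cd163*, the scavenger receptor for hemoglobin, was 4.32-fold lower (6.66, 9.69 and 7.58) and *Pf4*, a chemokine that resident macrophages share with platelets, was 3.43-fold lower (12.19, 12.40 and 10.62). *Maf*, a transcription factor of these cells, was 2.07-fold lower (11.65, 11.33 and 10.28), with other probe sets between -1.70 and -0.26. *Igf1* was the higher member (11.51, 5.70 and 6.70), far below its BMDM value in both TAMs. The complement genes *C1qa* (8.87, 13.28 and 12.96) and *C1qb* (8.40, 13.06 and 12.70), and *Apoe* (10.21, 13.42 and 13.36), were above their BMDM values in both TAMs and differed between the TAMs by less than 2-fold.

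Neutrophil genes made up another coherent group. Of 24 markers compared, all 24 had a higher value in mTAMs and 20 were at least 2-fold higher, with a median difference of 1.92. *Cxcr2*, the receptor that guides neutrophils to CXCL1 and CXCL2, was 8.82-fold higher (5.14, 8.18 and 11.32), and *Csf3r*, the receptor for the granulocyte growth factor G-CSF, was 5.66-fold higher (6.28, 10.02 and 12.52). The secondary granule genes followed, with *Mmp8*, neutrophil collagenase (9.14, 10.44 and 13.09, 6.28-fold), *Ngp* (7.46, 10.53 and 12.71, 4.53-fold), *Ltf*, which encodes lactoferrin (6.05, 9.08 and 10.85, 3.41-fold), and *Camp*, the cathelicidin (6.13, 8.41 and 10.18, 3.41-fold). Among genes of the primary granules, which are transcribed in precursors, *Mpo* was 6.32-fold higher (5.44, 6.32 and 8.98) and *Ctsg* at least 6.82-fold higher (5.40, 5.18 and 8.07), whereas *Prtn3* (4.74, 9.48 and 9.64) and *Elane* (5.42, 5.48 and 5.89) were within 2-fold. *S100a8* (8.76, 13.47 and 14.20) and *S100a9* (7.73, 13.75 and 14.30) were high on both TAMs arrays and also within 2-fold. The median level of the list was 5.42 in BMDM, 10.12 in pTAMs and 12.30 in mTAMs, so these transcripts were plentiful in pTAMs as well. *Cd177* (3.89, 8.52 and 11.64), *Lrg1* (4.27, 10.36 and 13.33) and *Pglyrp1* (4.33, 7.41 and 10.66), all products of neutrophils, were 8.69-fold, 7.84-fold and 9.51-fold higher.

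Some transcripts of basophils and mast cells were higher in mTAMs, and others were below the floor on all arrays. Of 16 listed genes on the array, 9 were compared and 8 of these were at least 2-fold higher. As 5 of the 9 entered only through their mTAMs value, these counts describe genes that had to differ. *Mcpt8*, a protease of basophils, was at least 12.1-fold higher (4.66, 4.89 and 8.90), *Cpa3*, the carboxypeptidase of their granules, at least 2.31-fold higher (4.91, 4.51 and 6.51), and *Kit*, the receptor for stem cell factor, 7.36-fold higher (4.00, 5.95 and 8.83). *Hdc*, which makes histamine, was well above the floor in both TAMs and 5.31-fold higher in mTAMs (6.20, 9.99 and 12.40). The neutrophil list holds *Hdc* as well. On the mTAMs array 7 of the 16 were below the floor. The mast cell proteases *Mcpt4* (4.13, 4.13 and 4.13), *Cma1* (5.16, 4.89 and 5.11) and *Tpsb2* (4.76, 4.76 and 4.83) were below the floor on all arrays. *Il4* belongs here too (4.04, 4.21 and 5.57), with mTAMs just above the floor and a fold of at least 1.21. Of 5 eosinophil genes compared, 3 were higher and 1 lower, and all 3 higher ones entered only through mTAMs. These were *Prg2*, *Siglecf* and *Il4*, of which the alveolar macrophage list also holds *Siglecf* and the basophil and mast cell list *Il4*. With values raised to the floor, 2 were higher. *Prg2*, the major basic protein, was at least 8-fold higher (4.05, 3.66 and 8.30), and *Rnase2a* was lower (3.89, 10.30 and 7.90). *Epx*, eosinophil peroxidase (3.43, 3.13 and 4.25), and *Ccr3*, their eotaxin receptor (4.94, 3.83 and 4.86), were below the floor throughout.

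Genes of airway and alveolar epithelium behaved unevenly. Of 19 compared, 5 were at least 2-fold higher in mTAMs, and all 5 are genes of airway secretory cells: *Scgb1a1*, *Scgb3a1* (5.62, 5.78 and 9.11, 10.1-fold), *Scgb3a2* (4.71, 4.95 and 8.37, at least 8.40-fold), *Bpifa1* (3.23, 2.95 and 8.34, at least 8.22-fold) and *Cyp2f2* (3.43, 3.53 and 6.75, at least 2.73-fold). All but *Scgb3a1* were below the floor in pTAMs, so these 4 entered only through mTAMs and had to be higher. The surfactant genes of alveolar type II cells stayed near the floor, with *Sftpc* at 5.64 in pTAMs and 6.61 in mTAMs and *Sftpb* at 5.66 and 6.10. *Nkx2-1* was 5.56 on every array. Some keratins and other genes of carcinoma epithelium were detected in both TAMs with a higher value in pTAMs. Examples were *Krt8* (5.34, 10.36 and 9.57), *Krt18* (3.78, 9.77 and 8.92) and *Cdh1*, which encodes E-cadherin (4.73, 9.88 and 8.16, 3.29-fold lower in mTAMs). Of 16 such markers compared, 11 had a lower value in mTAMs and 4 a higher one, with a median of -0.51. At least 2-fold, 3 were lower and 2 higher, the latter including *Cd24a* (9.87, 11.29 and 12.63, a log2 difference of 1.34).

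Of 14 fibroblast markers, 5 were higher in mTAMs and none lower, among them the collagen genes *Col3a1* (4.75, 8.15 and 11.09, 7.67-fold) and *Col1a2* (5.38, 6.67 and 9.46, 6.92-fold) and the proteoglycan gene *Dcn* (5.32, 7.02 and 10.28, 9.58-fold). With all probe sets averaged, *Col1a2* differed by 1.61 and *Dcn* by 1.63 on the log2 scale. *Col1a1*, *Pdgfrb* and *Lum* were at or near the floor on both TAMs arrays. Lymphocyte markers were mostly below the floor. Of 20 T cell genes on the array 8 were compared, with *Cd3d* (5.86, 6.03 and 8.31) and *Cd2* (6.35, 5.62 and 7.67) higher and *Il7r* (10.19, 10.08 and 8.82) lower. The alveolar macrophage list holds *Cd2* as well. *Cd3g*, *Cd5* and *Cd28* were below the floor in both TAMs. No marker of endothelium was at least 2-fold higher, and *Pecam1* was lower (3.92, 7.61 and 5.96, 3.14-fold). Marker lists of cells other than monocytes and macrophages of any kind held 48 of the higher and 10 of the lower genes, and without them 585 genes were higher and 294 lower. The part of such cells in the differences described below was not tested.

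**Figure D3:**
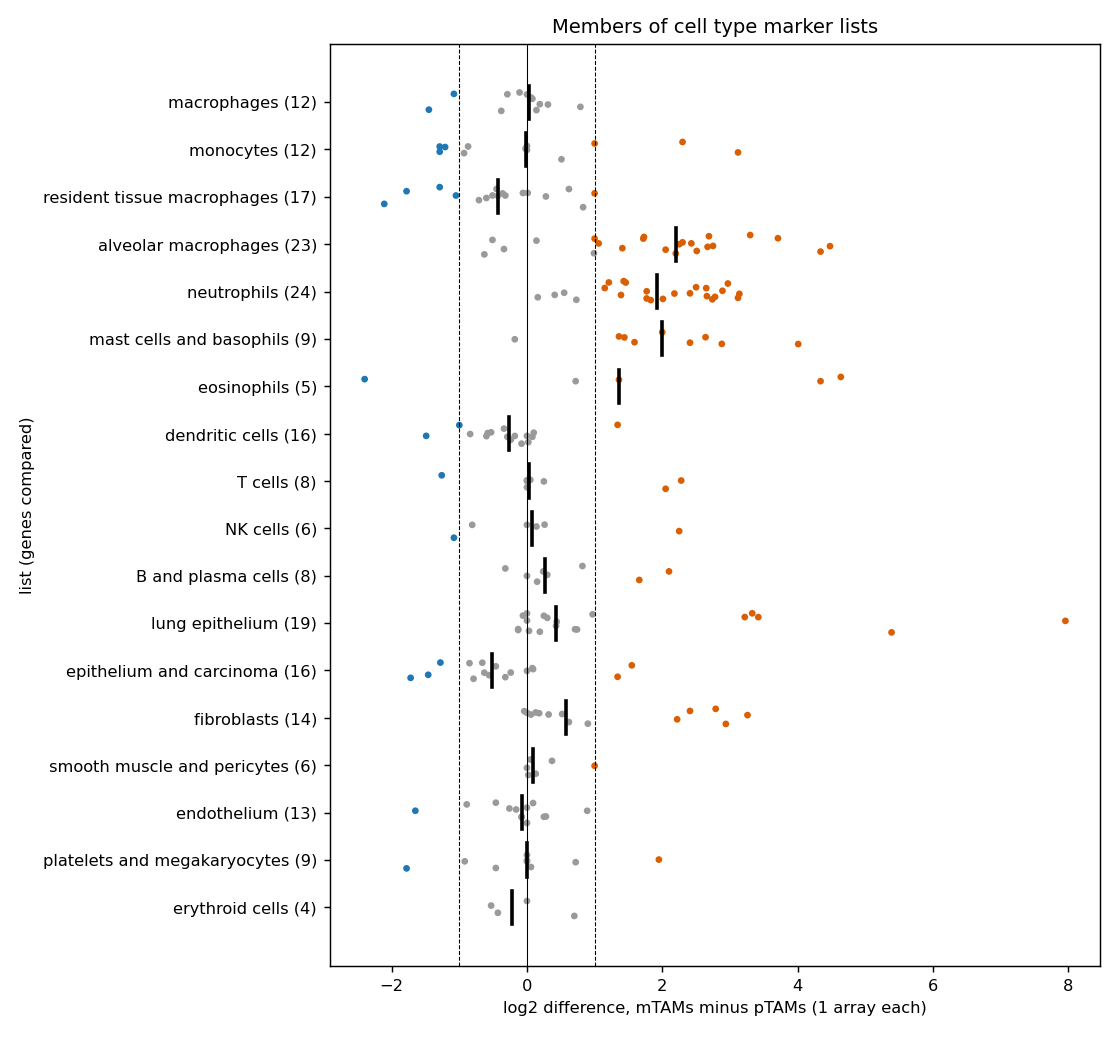
Log2 differences between mTAMs and pTAMs (horizontal axis, 1 array each) for the members of 18 cell type marker lists (vertical axis, number of genes compared in brackets). Each point is a gene, orange at least 2-fold higher, blue at least 2-fold lower, and black bars are medians. Neutrophil, alveolar macrophage and basophil markers lie to the right, with medians of 1.92, 2.20 and 2.0, and those of macrophages center on 0.03. Of the alveolar macrophage genes 7 of 23, and of the basophil and mast cell genes 5 of 9, entered only through mTAMs and had to lie to the right. With values raised to the floor, the medians of these 2 lists are 1.41 and 1.21.

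Genes of the hypoxia response were lower in mTAMs. Of 33 compared, 14 were at least 2-fold lower and none was higher, 30 of the 33 differences were below 0, and the median was -0.85 against -0.06 for all genes. *Adm*, the vasodilator adrenomedullin, was 4.32-fold lower (5.07, 8.14 and 6.03), *Ndrg1* 3.71-fold (9.65, 12 and 10.11) and *Ak4*, a mitochondrial adenylate kinase, 3.43-fold (5.54, 8.41 and 6.63), the last with other probe sets between -2.25 and -0.55. *Ankrd37* (6.75, 9.47 and 7.85, 3.07-fold), the collagen prolyl hydroxylase gene *P4ha2* (6.74, 7.27 and 5.68, 3.01-fold) and *Egln3*, an oxygen sensor that marks HIF for degradation (4.60, 10.74 and 9.16, 2.99-fold), came next. In the same direction lay *Pdk1*, which holds pyruvate back from mitochondria (7.55, 8.55 and 7.23, 2.50-fold), *Ero1a*, an oxidase of the endoplasmic reticulum (9.36, 11.44 and 10.19, 2.38-fold), *Ddit4*, an inhibitor of mTOR (4.71, 11.04 and 9.81, 2.35-fold), and *Bnip3*, which targets mitochondria to autophagy (9.32, 12.44 and 11.33, 2.16-fold). pTAMs had the highest value of the 3 arrays for every gene named so far in this group. *Selenbp1* (3.68-fold) and *Scd2* (3.34-fold) are counted among the 14 but are not usually named as targets of these factors. The genes of the factors themselves did not differ by 2-fold, with *Hif1a* at 12.34 and 12.21 and *Epas1* at 7.33 and 7.40 in pTAMs and mTAMs. *Nfil3*, at 10.85 and 11.83, was the member farthest on the other side.

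Hypoxia-inducible factors bind the core ACGTG. In the RefSeq promoter windows of 250 bases before to 50 after around gene starts, read on both strands, the core was found in 10 of the 12 lower members that had a window (83.3%) and in 20 of the 28 members compared that had one (71.4%). It stood in 29.0% of 9554 compared genes with a window, in 30.8% of the 224 genes at least 2-fold lower and in 27.1% of the 505 at least 2-fold higher, so the share among lower genes at large was near that of all genes. Most members were listed as known targets, so a high share among them was to be found. *Selenbp1*, which is not usually named as a target, is among the 10 with a match. The 250 bases before the start are printed for 5 lower members that show where the core lies, from the assembly GRCm38.p6, 5′ to 3′ on the strand of the gene, with the core or its reverse complement in capitals. A match is a description of these letters and not a site shown to be bound.
*Ankrd37*, chr8:45999851-46000100, minus strand: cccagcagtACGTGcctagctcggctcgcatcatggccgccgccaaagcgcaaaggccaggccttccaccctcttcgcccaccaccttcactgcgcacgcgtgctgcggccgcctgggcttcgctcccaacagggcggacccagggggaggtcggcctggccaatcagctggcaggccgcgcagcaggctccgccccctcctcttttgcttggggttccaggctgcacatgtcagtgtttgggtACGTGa
*P4ha2*, chr11:54100674-54100923, plus strand: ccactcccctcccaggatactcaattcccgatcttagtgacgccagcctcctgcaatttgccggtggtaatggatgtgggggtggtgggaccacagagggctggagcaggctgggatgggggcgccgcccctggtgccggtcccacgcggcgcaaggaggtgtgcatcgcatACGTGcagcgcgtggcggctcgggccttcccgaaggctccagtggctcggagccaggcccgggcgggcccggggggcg
*Egln3*, chr12:54203875-54204124, minus strand: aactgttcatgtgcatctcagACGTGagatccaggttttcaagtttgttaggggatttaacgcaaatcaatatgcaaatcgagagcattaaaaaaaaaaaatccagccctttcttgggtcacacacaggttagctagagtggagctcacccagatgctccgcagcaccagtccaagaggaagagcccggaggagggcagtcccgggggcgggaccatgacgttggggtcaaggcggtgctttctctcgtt
*Ero1a*, chr14:45318573-45318822, minus strand: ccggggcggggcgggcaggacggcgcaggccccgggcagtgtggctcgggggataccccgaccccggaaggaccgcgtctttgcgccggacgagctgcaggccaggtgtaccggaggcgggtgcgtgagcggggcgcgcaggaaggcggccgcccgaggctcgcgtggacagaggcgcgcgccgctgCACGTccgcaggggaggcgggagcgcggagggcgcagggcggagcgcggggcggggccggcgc
*Bnip3*, chr7:138909507-138909756, minus strand: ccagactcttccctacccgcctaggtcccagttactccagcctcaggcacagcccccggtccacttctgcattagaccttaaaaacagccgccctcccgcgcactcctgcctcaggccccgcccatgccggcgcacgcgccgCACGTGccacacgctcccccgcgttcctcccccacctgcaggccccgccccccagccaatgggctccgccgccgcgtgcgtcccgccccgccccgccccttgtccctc
In *Ankrd37* the core occurs 2 times, and in *Bnip3* the capitals hold a match on each strand. No match was found in the windows of *Adm*, the member with the largest difference.

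Enzymes of glycolysis shared part of this pattern. Of 22 compared, 5 were lower in mTAMs and 3 higher, with a median of -0.53. After cyclic loess normalization 2 were lower, and the median was -0.31. *Eno2*, the enolase of neurons that many hypoxic cells also use, was 6.28-fold lower (6.10, 8.86 and 6.21) and *Aldoc* 2.48-fold (8.95, 9.73 and 8.42), followed by *Hk2* (8.52, 10.72 and 9.65), *Pfkp* (10.28, 11.20 and 10.13) and *Gys1*, glycogen synthase (7.10, 8.82 and 7.75), each 2.10-fold lower. Other enzymes differed less, as for *Ldha*, at 12.92 and 12.60, and *Pgk1*, at 13.06 and 12.46 in pTAMs and mTAMs. Of the glucose transporters, *Slc2a1* was 12.42 and 11.61 and *Slc2a3* was 3.97-fold higher in mTAMs (9.0, 10.34 and 12.33). *Pygl*, which releases glucose from glycogen (9.36, 10.98 and 12.45, 2.77-fold), and *Pfkfb4* (7.87, 9.16 and 10.34, 2.27-fold) were higher too.

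**Figure D4:**
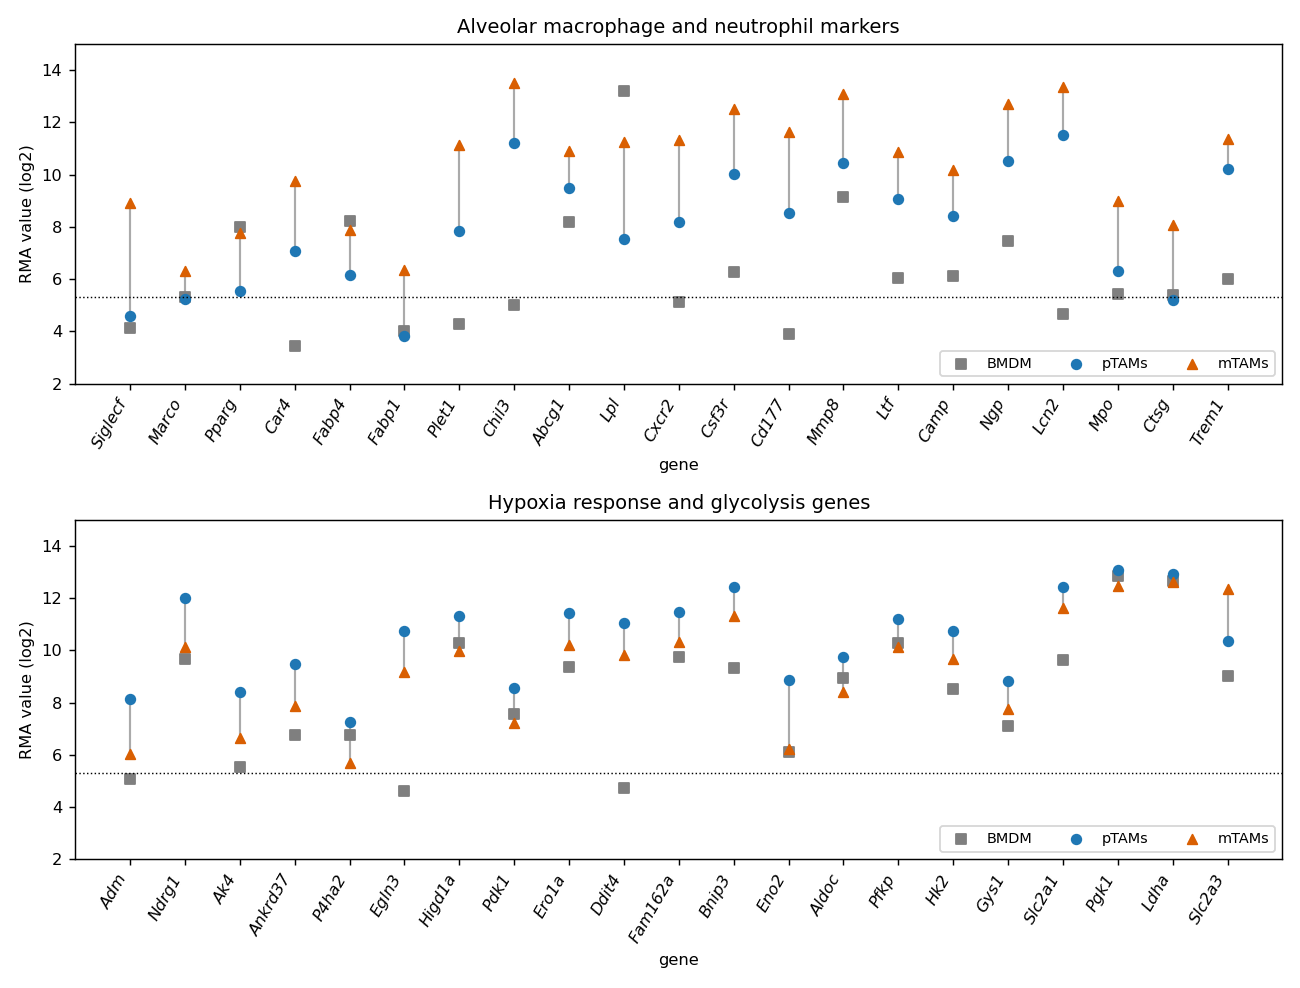
Log2 RMA values (vertical axis) of markers of alveolar macrophages and neutrophils (upper panel) and of hypoxia response and glycolysis genes (lower panel) on the BMDM, pTAMs and mTAMs arrays, each point being a single array and the dotted line the floor of 5.3. The genes drawn were picked from these lists with their values known, so their shared direction is not a result. All drawn in the upper panel are higher in mTAMs than in pTAMs, and all in the lower panel are lower except *Slc2a3*. List members that went the other way are not drawn, among them *Itgax* and *Mrc1* for the upper panel and *Pygl*, *Pfkfb4* and *Nfil3* for the lower.

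Among secreted signals, several chemokine genes were lower in mTAMs. Of 25 ligand genes compared, 9 were lower and 2 higher, with a median of -0.81. Among them were 3 attractants of monocytes that act on CCR2, with *Ccl12* 4.0-fold lower (8.45, 11.99 and 9.99), *Ccl7* 2.85-fold (10.78, 10.39 and 8.88) and *Ccl2* 2.64-fold (12.65, 11.66 and 10.26). *Ccl24*, an eotaxin, was 5.13-fold lower (5.89, 12.10 and 9.74), *Cxcl14* 4.06-fold (9.33, 10.31 and 8.29), and *Cxcl11*, a ligand of CXCR3, 2.22-fold (6.36, 9.79 and 8.64). Neutrophil attractants differed less: *Cxcl2* (7.08, 12.96 and 13.49) and *Cxcl3* (3.18, 11.64 and 10.97) were within 2-fold, and *Cxcl1* was 2.13-fold higher (6.52, 10.74 and 11.83). The gene farthest on the higher side was *Cxcl13*, the B cell attractant, 7.62-fold higher (5.66, 5.58 and 8.51), with a second probe set at 4.53. *Ccl3* and *Ccl4* were within 2-fold.

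The receptors for such signals split. Of 15 compared, 4 were higher in mTAMs and 3 lower. Beside *Cxcr2*, the higher ones were *Ccrl2*, a receptor for chemerin (6.81, 11.79 and 12.96, 2.25-fold), *Cxcr4*, which holds cells in the marrow (9.41, 11.10 and 12.19, 2.13-fold), and *Fpr2*, which senses formyl peptides (8.45, 12.10 and 13.13, 2.04-fold). *Ackr3* was lower, as were *C3ar1*, the receptor for complement C3a (12.38, 11.37 and 10.12, 2.38-fold), and *Cx3cr1*.

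Several inflammatory cytokine genes were higher in mTAMs. Of 23 compared, 9 were higher and 1 lower, with a median of 0.78, or 0.65 with values raised to the floor. Of the 9, *Il12a* and *Il4* were at or below the floor in pTAMs, so these 2 had to be higher. Among the 9 were *Ltb*, lymphotoxin β (6.90, 9.03 and 11.66, 6.19-fold), *Tnfsf14*, known as LIGHT (5.39, 6.35 and 8.62, 4.82-fold), and *Tnf* (8.37, 7.62 and 9.83, 4.63-fold). Their relatives *Tnfsf9* (7.65, 7.27 and 7.42), *Tnfsf10* (5.64, 5.76 and 5.64) and *Tnfsf13b* (5.87, 8.08 and 7.63) were within 2-fold. *Csf1*, the growth factor of macrophages, was 3.29-fold higher (6.14, 9.48 and 11.20). *Il16* was 4.26-fold higher (7.23, 8.31 and 10.40), but its other probe sets differed by 0 to 0.88. The subunits of IL-35, *Il12a* (4.46, 5.23 and 7.13) and *Ebi3* (8.80, 7.95 and 9.17), were chosen by the study on these arrays and are among the 9. So is *Il4* (4.04, 4.21 and 5.57), whose product was the other candidate of the study. The interleukin genes *Il1b* (5.16, 13.30 and 14.08), *Il6* (3.22, 9.91 and 10.55) and *Il1a* (5.17, 9.58 and 9.65) were within 2-fold. *Csf3*, which encodes G-CSF, was 2.10-fold lower (4.59, 7.67 and 6.6), the only cytokine of the list past 2-fold in this direction.

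Of 30 cytokine receptor genes, 6 were higher and *Tnfrsf9* was lower. Among the 6 were both chains of the IL-18 receptor, *Il18r1* (4.32, 4.57 and 7.41, at least 4.32-fold) and *Il18rap* (6.72, 8.36 and 10.31, 3.86-fold), the shared chain *Il1rap* (6.96, 8.25 and 9.75, 2.83-fold) and the decoy receptor *Il1r2* (5.86, 11.88 and 13.09, 2.31-fold). The ligand gene *Il18* was 9.37 in pTAMs and 10.36 in mTAMs. *Csf3r* and *Il17ra* (8.62, 10.05 and 11.07, 2.03-fold) completed the 6. The neutrophil list holds *Csf3r* and *Il1r2*. Of 21 genes of JAK-STAT signaling and its feedback, none was higher and *Socs2* was 2.64-fold lower (3.69, 9.30 and 7.90).

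Of 21 genes of NF-κB signaling, its feedback and its targets, 5 were higher and none lower, with a median of 0.70, or 0.37 where every probe set of a gene was averaged. These were *Nfkbid* (8.39, 8.70 and 10.60, 3.73-fold), *Tnfaip3*, a ubiquitin editor that ends the signal (7.62, 10.48 and 12.15, 3.18-fold), *Tnfaip2* (9.76, 10.54 and 12.05, 2.85-fold), *Nfkbiz* (6.6, 11.07 and 12.55, 2.79-fold) and *Birc3* (8.44, 10.58 and 11.71, 2.19-fold). The inhibitors *Nfkbia* (11.42, 12.79 and 13.54), *Nfkbib* (8.29, 8.50 and 8.58) and *Nfkbie* (7.69, 9.74 and 9.38) were within 2-fold. The subunit genes *Rela* (9.56, 9.58 and 9.90), *Relb* (6.62, 7.5 and 7.73) and *Rel* (6.11, 7.69 and 8.39) were within 2-fold.

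Immediate early genes, which respond within minutes to growth factors, stress or cell isolation, showed a similar shift. Of 33 compared, 27 had a higher value in mTAMs, 9 were at least 2-fold higher and 2 lower, with a median of 0.68. After cyclic loess normalization, 14 were higher. *Gadd45b* was 3.92-fold higher (7.86, 10.25 and 12.22), *Ier2* 3.14-fold (8.71, 10.68 and 12.33), *Egr1* 2.93-fold (6.40, 11.59 and 13.14) and *Junb* 2.75-fold (7.47, 10.93 and 12.39). *Egr3* was 4.96-fold higher (4.44, 7.58 and 9.89), with a second probe set at 0. *Fos* was high in both TAMs (10.46, 13.38 and 13.84). The phosphatase genes *Dusp4* (9.54, 8.24 and 6.82, 2.68-fold) and *Dusp6* (11.26, 12.09 and 11.05, 2.06-fold), which restrain ERK, were the lower members.

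**Figure D5:**
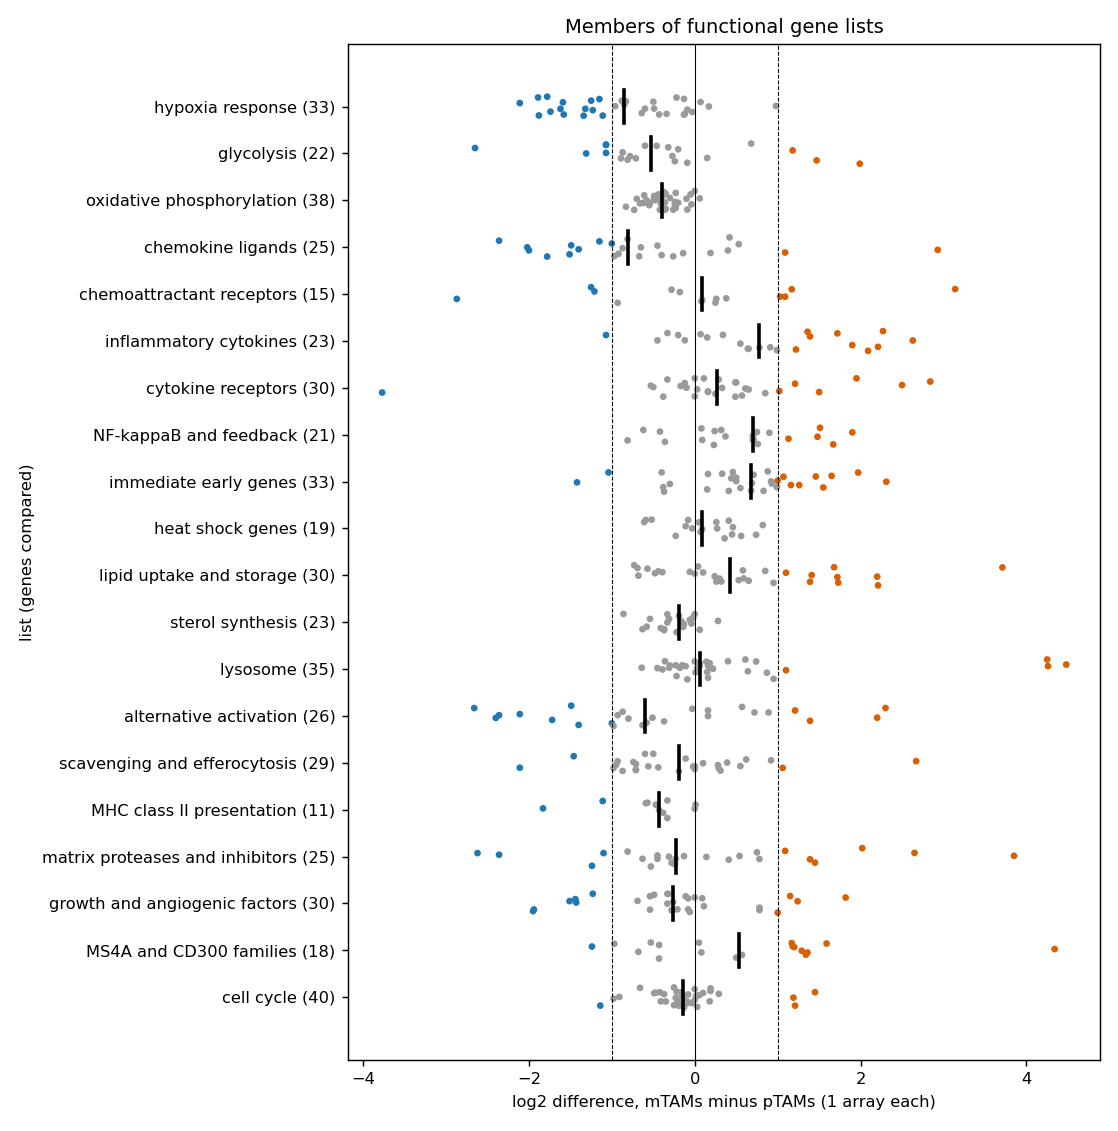
Log2 differences between mTAMs and pTAMs (horizontal axis, 1 array each) for members of 20 functional lists (vertical axis, number of genes compared in brackets). Each point is a gene, orange at least 2-fold higher, blue at least 2-fold lower, and black bars are medians. The median is -0.85 for the hypoxia response, -0.81 for chemokine ligands, 0.78 for inflammatory cytokines and 0.70 for NF-κB genes.

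Several genes for taking up and storing lipid were higher in mTAMs. Of 30 compared, 9 were higher and none lower, with a median of 0.43. *Lpl*, which frees fatty acids from lipoproteins, was 13.1-fold higher (13.20, 7.55 and 11.26), with a second probe set at 4.00. Both enzymes of triglyceride synthesis, *Dgat2* (6.69, 8.08 and 10.29, 4.63-fold) and *Dgat1* (7.43, 8.45 and 10.18, 3.32-fold), and both lipases of stored fat, *Pnpla2* (8.29, 8.40 and 10.08, 3.20-fold) and *Lipe* (6.86, 7.13 and 8.23, 2.14-fold), were higher. *Abcg1*, which exports cholesterol, was 2.66-fold higher (8.20, 9.50 and 10.91), and *Fabp4* 3.29-fold (8.21, 6.15 and 7.87), or 0.79 on the log2 scale without shared probe sets. *Mgll* was 2.62-fold higher (5.71, 5.56 and 6.95), but its other probe sets ranged from 0.06 to 2.59. Fatty acid synthesis differed little, with *Fasn* at 8.62 and 8.05 and *Scd1* at 7.09 and 6.41 in pTAMs and mTAMs. *Cd36*, the fatty acid transporter, was far above both TAMs in BMDM (12.47, 8.33 and 8.43). Of the 9 genes, 4 also stand in the alveolar macrophage list, and 5 were left without them.

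Most lysosomal genes were alike in both populations. Of 35 compared, 31 were within 2-fold and the median was 0.06. The exceptions were *Atp6v0d2*, *Gpnmb* and *Ctsk*, described above, and *Ctsd*, cathepsin D (13.54, 12.04 and 13.14, 2.14-fold). For each of these 4 genes BMDM lay above pTAMs. *Ocstamp*, a fusion protein of osteoclasts, went the opposite way and was 3.86-fold lower in mTAMs (5.38, 8.72 and 6.77).

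Genes of alternative activation did not move as a block. Of 26 compared, 8 were lower in mTAMs and 4 higher, with a median of -0.60. Among the lower, beside *Mgl2*, *Ccl24* and *Cd163*, were *Rnase2a* (3.89, 10.30 and 7.90, 5.28-fold), *Ccl17* (4.84, 7.55 and 6.06, 2.81-fold) and *Cdh1*. Higher were *Chil3*, *Pparg*, *Il10* (5.99, 5.58 and 6.97, 2.62-fold) and *Il1r2*. *Retnla*, another classical product of IL-4-treated macrophages, was 10.35 in pTAMs and 11.24 in mTAMs. Among scavenger receptors, *Msr1* was 2.75-fold lower (12.63, 12.45 and 10.99), with its other probe sets between -1.60 and -1.35, and *Olr1*, the receptor for oxidized LDL, was 6.36-fold higher (4.81, 6.66 and 9.33). *Mertk* and *Axl*, receptors for apoptotic cells, were within 2-fold.

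Antigen presentation differed in few genes. Of 11 genes of the MHC class II pathway 2 were lower in mTAMs, the peptide-exchange genes *H2-DMb2* (6.21, 9.78 and 7.95, 3.56-fold) and *H2-DMa* (8.81, 11.91 and 10.80, 2.16-fold). After cyclic loess normalization 1 of them was lower. The class II chains *H2-Aa* (8.94, 13.35 and 12.97) and *H2-Ab1* (7.92, 12.71 and 12.28) differed little between the TAMs. Of 24 costimulatory and checkpoint genes, 4 were lower and 2 higher. The higher ones were *Cd200r4* (8.93, 8.15 and 9.57) and *Vsig4* (5.91, 4.95 and 6.20). *Vsig4* entered only through its mTAMs value and had to be higher, and with values raised to the floor 1 gene was higher. *Cd86*, the costimulatory ligand of CD28, was 3.63-fold lower (5.70, 10.27 and 8.41), whereas *Cd80* was 7.90 and 7.88. The checkpoint genes *Pdcd1lg2*, which encodes PD-L2 (3.62, 8.15 and 6.57, 2.99-fold), and *Havcr2*, which encodes TIM-3 (8.03, 9.74 and 8.33, 2.66-fold), were lower, and *Cd274*, which encodes PD-L1, was 10.57 and 9.77. *Nt5e*, the ectoenzyme CD73 that makes adenosine, was 2.60-fold lower (6.11, 8.56 and 7.18).

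Genes of matrix remodeling differed in both directions. Of 25 proteases and inhibitors compared, 6 were higher in mTAMs and 4 lower. Of the 6, 2 were at or below the floor in pTAMs, so these had to be higher. The metalloproteases *Mmp13*, *Mmp12*, *Mmp3* (4.94, 8.02 and 6.78, 2.36-fold) and the membrane-bound *Mmp14* (5.85, 10.09 and 8.99, 2.14-fold) were lower. The neutrophil enzymes *Mmp8* and *Mmp9* (5.41, 10.82 and 12.21, 2.62-fold), with *Adam19* and the plasminogen activator inhibitor *Serpinb2* (4.31, 7.0 and 9.02, 4.06-fold), were among the higher. *Thbs1*, the antiangiogenic thrombospondin (5.51, 12.01 and 10.57, 2.71-fold), and *Col14a1* (4.82, 10.15 and 8.59, 2.95-fold) were lower, in contrast to the fibrillar collagens of the fibroblast list.

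Among growth and angiogenic factors, 6 of 30 were lower in mTAMs and 4 higher. *Vegfa*, the main angiogenic factor and a hypoxia target, was 2.85-fold lower (6.64, 9.56 and 8.05), *Pgf*, its relative, 3.84-fold (5.85, 7.79 and 5.85), and the HGF receptor gene *Met* 3.86-fold (5.57, 9.45 and 7.5). *F3*, tissue factor (3.23, 7.84 and 6.41, 2.69-fold), and *Hbegf*, a ligand of the EGF receptor (5.74, 8.31 and 7.08, 2.35-fold), were lower as well. *Ereg*, another such ligand, was at least 2.93-fold higher (4.33, 5.03 and 6.85), and *Hgf* 2.22-fold higher (5.42, 5.75 and 6.90). In the TGF-β pathway, *Tgfb3* (4.76, 8.45 and 6.90, 2.93-fold) and *Inhba*, the activin subunit (7.20, 10.51 and 9.07, 2.71-fold), were lower, and *Id1*, a target of BMP signaling, was 3.20-fold higher (8.78, 8.68 and 10.36).

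Of 23 genes of iron and heme handling, 5 were higher in mTAMs and 2 lower. *Slc40a1*, the iron exporter ferroportin, was 9.13-fold higher in mTAMs (9.91, 8.45 and 11.64), with a second probe set at 3.28, and *Steap4*, a metalloreductase, 10.2-fold higher (4.89, 8.93 and 12.28). *Lcn2* (4.65, 11.51 and 13.34, 3.56-fold) and *Hp*, haptoglobin (4.82, 10.60 and 13.19, 6.02-fold), which neutrophils also make, were higher, whereas *Cd163*, the receptor that takes up haptoglobin-bound hemoglobin, was lower. *Hmox1*, which degrades heme (9.02, 10.03 and 10.24), and *Fth1*, ferritin (14.29, 14.16 and 14.17), did not differ by 2-fold.

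Among eicosanoid genes, 3 of 20 were higher and 2 lower, beside 5.36% and 2.58% of all compared genes. Of the 3, 2 were at or below the floor in pTAMs and entered only through their mTAMs value, so these had to be higher. *Alox5*, which starts leukotriene synthesis, was 3.25-fold higher (7.53, 8.0 and 9.70), and *Ptgis*, prostacyclin synthase, at least 4.38-fold (4.71, 4.82 and 7.43). *Pla2g4a*, the phospholipase that releases arachidonic acid, was 2.19-fold lower (10.02, 10.27 and 9.14), and *Cysltr1*, a receptor for cysteinyl leukotrienes, 2.79-fold lower (9.12, 10.23 and 8.75). *Ptgs2*, cyclooxygenase-2, was 11.48 and 11.92 in pTAMs and mTAMs.

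Of 18 genes of the MS4A, CD300 and Siglec families of surface proteins, 8 were higher and 1 lower, with a median of 0.53. Raising values to the floor left 6 higher and a median of 0.29. *Cd300a* (10.03, 8.63 and 9.99, 2.57-fold) and *Cd300lb* (11.44, 9.22 and 10.51, 2.45-fold), where pTAMs were lowest, and *Cd33* (6.87, 9.14 and 10.48, 2.53-fold) were among them, as were *Siglecf* and *Ms4a2*, which the marker lists of eosinophils and basophils hold. *Ms4a6b* (11.31, 12.22 and 11.54) and *Ms4a7* (10.06, 10.24 and 9.81) were within 2-fold. Of the Toll-like receptor genes, *Tlr2* (8.93, 10.26 and 11.83, 2.97-fold), *Tlr6* (7.68, 8.63 and 9.98, 2.55-fold) and *Tlr1* (7.70, 9.63 and 10.64, 2.01-fold), which pair to sense bacterial lipoproteins, were higher. *Tlr4* was 10.40 and 10.55, and *Cd14*, its coreceptor, 13.14 and 13.33. *Pycard*, the inflammasome adaptor, was 2.30-fold lower (10.69, 11.23 and 10.03), and *Nlrp3* was 9.63 and 10.03.

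Transcription factors differed in a few cases. *Runx3* was 4.11-fold lower in mTAMs (5.86, 10.06 and 8.02), with a second probe set at -0.37. *Irf8*, which directs monocytes toward macrophages (9.95, 10.88 and 9.82, 2.08-fold), and *Irf5* (8.93, 9.51 and 8.45, 2.08-fold) were lower. Of 29 listed genes compared, 5 were higher and 4 lower, beside 5.36% and 2.58% of all compared genes. The higher ones include *Car4*, which is an enzyme and no transcription factor. After cyclic loess normalization, 6 of 30 were higher and 1 was lower. *Cebpd*, a factor of the acute phase, was 5.70-fold higher (9.45, 9.83 and 12.34), with a second probe set at 0.22, and *Gata2*, a factor of basophils and mast cells, 2.71-fold higher (5.71, 5.71 and 7.15). *Spi1*, which encodes PU.1, was 10.70 and 11.49 in pTAMs and mTAMs.

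Finally, the genes at least 2-fold apart were placed against BMDM, which had no part in the threshold. Of the 633 higher genes, BMDM lay below both TAMs for 431 (68.1%), between them for 163 and above both for 39 (6.16%). Over all compared genes BMDM lay below both for 26.1% and above both for 45.3%. For the 304 lower genes, BMDM lay below both for 131 (43.1%), between for 94 and above both for 79 (26%). The BMDM value was nearer to that of pTAMs for 559 of the higher genes and nearer to that of mTAMs for 181 of the lower genes. In both directions it was thus more often near the lower of the 2 TAMs values, a share not counted over all compared genes. BMDM was at or below the floor, where values have no order, for 25.8% of the higher and 20.4% of the lower genes. Over all compared genes this held for 5.1%. *Gpnmb* and *Lpl*, both high in BMDM, low in pTAMs and intermediate in mTAMs, were among the 39.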

How the data were processed

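Total RNA of BMDM, pTAMs and mTAMs was hybridized to Affymetrix mouse arrays, 1 for each population. The authors deposited log2 RMA values of 45037 probe sets, that is, values background-corrected, quantile-normalized and summarized over the 3 arrays, rounded to 2 decimals. The version of RMA and a genome build are not given in the sources used here. Quantile normalization hides a shift of the whole transcriptome, and pTAMs and mTAMs shared an identical value for 31.2% of the probe sets. The arrays had medians of 5.36 (BMDM), 5.43 (pTAMs) and 5.43 (mTAMs), and their number limits the precision.

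Probe sets with 1 gene symbol in the platform annotation (34945) were used, and those with several (932) or none (9160) were not named. Differences were mTAMs minus pTAMs, called at 2-fold. In all, 58 gene lists were used (40 functional, 18 of cell type markers). The members and lists were chosen with earlier results of these data known, so no list was tested. Genes named were the top 40 in each direction by size of difference after raising values to the floor, without predicted genes, list members past 2-fold, and other list members that define a role. Not every gene that the rule allows is named. Promoter windows (250 bases before to 50 after a start) came from RefSeq, GRCm38.p6. Alternatives are named in the closing section. The procedure was tested on simulated data. Tools were limma 3.58.1 (R 4.3.3) for normalization, pandas 2.3.3 and numpy 2.4.6 (Python 3.11.15) for the comparisons, and matplotlib 3.10.9 for plots.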

Additional observations from a re-analysis of the deposited data

How the results depend on the processing

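With 1 array per group no result has an error across mice, and values near 5.3 have no order. The count of higher genes ranged from 531 to 718 and that of lower genes from 208 to 310 over median-centring, quantile and cyclic loess normalization, averaging the probe sets of a gene, no shared probe sets, no floor, a floor 1 log2 unit higher, both values above the floor, values raised to the floor, and leaving out marker genes. At 3-fold, 294 were higher and 58 lower. Cyclic loess normalization gave 718 higher and 238 lower (75.1% higher against 67.6%). Of single genes, 291 were followed where a setting kept them, and none was reversed. Averaging probe sets moved 68 of 286 by more than the spread between probe sets, raising values to the floor moved 28 of 291, and leaving out shared probe sets moved 15 of 257. Medians of 6 lists, all close to 0, changed sign: those of macrophage (0.03 to -0.02) and iron genes with quantile normalization, and those of complement, cell death, costimulation and monocyte genes with cyclic loess.

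At 3-fold, the members counted were 7 for hypoxia response, 4 for chemokine ligands, 3 for immediate early genes and 2 for NF-κB genes. Cyclic loess normalization gave 14 immediate early genes. It left 12 lower hypoxia genes, and 1 lower gene each among macrophage markers, interferon-stimulated genes and eicosanoid genes. The mean of all probe sets gave an NF-κB median of 0.37 and 5 basophil and mast cell genes, and so did probe sets not shared (5). Without shared probe sets the alveolar macrophage median was 1.89. With both values above the floor, 11 alveolar macrophage genes (median 1.88) and 3 basophil and mast cell genes were higher. With values raised to the floor, the medians of these 2 lists were 1.41 and 1.21. The basophil and mast cell median was 1.40 with no floor and 2.53 with the higher floor. Without all marker lists except those of monocytes and of macrophages in general, 568 genes were higher and 291 lower, and 5 lipid genes were higher. That setting also removes alveolar and resident macrophage markers. When these were kept, an alternative chosen after seeing the data, 9 lipid genes were higher. The cause of the other changes was not tested. No paired analysis was possible because each group has 1 array. Leaving out an array was not possible for the same reason.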

Other observations

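Several housekeeping programs differed little between mTAMs and pTAMs, or by a small amount in many genes. Of 38 genes of oxidative phosphorylation, none was 2-fold apart, but 36 were lower in mTAMs, with a median of -0.40. After cyclic loess normalization 32 were lower, with a median of -0.21. *Ndufv2*, a subunit of complex I, was 11.03 and 10.33 in pTAMs and mTAMs, and *Uqcrb*, of complex III, 12.88 and 12.26. Sterol synthesis genes were alike, with none of 23 past 2-fold and a median of -0.19. None of 14 genes of MHC class I presentation and none of 19 heat shock genes was past 2-fold. *Hspa1a* (5.23, 12.14 and 12.59 in BMDM, pTAMs and mTAMs) and *Hspa1b* (7.12, 12.76 and 13.17) were high on both TAMs arrays. Of 38 interferon-stimulated genes, *Mx1* (9.06 and 7.6, 2.75-fold) and *Irf8* were lower and *Ifitm6* (11.58 and 13.22, 3.12-fold) was higher. Over all compared genes, 2.58% were lower and 5.36% higher.

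Of 40 cell cycle genes, 3 were higher in mTAMs and 1 lower, which is near the shares over all compared genes (5.36% and 2.58%). None was lower after cyclic loess normalization. *Mki67*, a marker of cycling cells, was 11.61 in BMDM, 9.79 in pTAMs and 9.60 in mTAMs, and *Ccnd1*, cyclin D1, was 2.20-fold lower in mTAMs (10.92 and 9.78). *Cdkn1b*, an inhibitor of cell cycle entry, was 2.73-fold higher (10.07 and 11.52). Among genes of the antioxidant response, *Slc7a11*, the cystine importer, was 2.89-fold lower (9.08 and 7.55) and *Gclm*, a subunit of the enzyme that makes glutathione, 3.43-fold higher (8.27 and 10.05). In the unfolded protein response, *Ddit3*, which encodes CHOP, was 2.85-fold higher (9.55 and 11.06). In all, 3 of 30 such genes were higher and 1 was lower, beside the same 5.36% and 2.58%. Among genes of cell death, *Fas* (6.96 and 8.78, 3.53-fold) was higher, and *Ripk3* (9.77 and 8.66, 2.16-fold) and *Mlkl* (8.80 and 7.77, 2.04-fold), the pair that carries out necroptosis, were lower. After cyclic loess normalization neither of this pair was past 2-fold.

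Of 3366 probe sets without a single gene name that were above the floor in pTAMs or mTAMs, 311 (9.24%) were at least 2-fold higher in mTAMs and 54 (1.60%) at least 2-fold lower.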
